A study of Mus musculus with 8 samples.

Results

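The proteasome subunit genes considered here are 37 genes for the barrel, the cap, the interferon-inducible catalytic subunits and the activators of the proteasome, out of 21883 protein-coding mouse genes. Their open chromatin was read from ATAC-seq peak lists of natural killer (NK) cells, the cytotoxic innate lymphocytes. The cells were enriched with DX5 beads from spleens of unchallenged mice and sorted as CD49b+ CD3e- cells, with 1 library per mouse. Libraries came from 4 mice wild-type for HSF1 (WT, replicates 4, 5, 6 and 7) and 4 mice bearing HSF1 with serines 303 and 307 changed to alanine (S303/7A, called MUT, replicates 26, 27, 28 and 29). HSF1, a transcription factor, switches on heat shock genes, and the series calls the mutant mice HSF1-enhanced. The labels state no strain, age or litter, and each genotype has its own run of replicate numbers, so any other difference between the mice cannot be told apart from the genotype.

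Members were found by position. Each called peak was linked to the protein-coding gene whose end lay nearest to its midpoint, within 50 kb, and a peak within 1 kb of that end was a gene-end peak. Peaks of different libraries that shared at least 1 bp were merged into regions. Among the regions linked to a gene, the one at or nearest to its transcription start is called its start region. For a gene with no linked peak, regions within 1 kb of its ends that were linked to a neighbour were used instead. Of the 37 genes, 34 had a linked peak and 32 had a linked gene-end region. The genes held 65 to 68 linked peaks per library, in lists of 42695 to 49627 peaks. The lists carry peak positions and an unnamed score but no read counts, so the depth of each library is unknown, and a region without a peak is a region not called. In bulk cells, fewer cells with an open region and less opening per cell cannot be told apart.

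The proteasome degrades proteins tagged with ubiquitin. Its 20S core is a barrel of outer alpha rings (Psma genes) that gate the entry and inner beta rings (Psmb genes) that hold the catalytic sites. The 19S cap (Psmc ATPases and Psmd subunits) binds, unfolds and feeds in the substrates. In lymphocytes and under interferon, the catalytic subunits of Psmb5, Psmb6 and Psmb7 are replaced by those of Psmb8, Psmb9 and Psmb10, which gives the immunoproteasome and shapes the peptides shown on MHC class I. NK cells in turn read MHC class I through inhibitory receptors. Promoters of proteasome genes are known targets of NFE2L1, and heat shock elements are the sites that HSF1 binds.

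The promoters below are the 250 bases before the start of the immunoproteasome genes, of counterparts whose start RefSeq lists, and of Psmc6 and Psmd4. They are shown because the results turn on the first 5 and on Psmc6, and because Psmd4 holds a pair of heat shock units. Sequences are from RefSeq (GRCm38.p6), on the strand of the gene. Capitals mark a match on either strand to a pair of heat shock units (TTCNNGAA or GAANNTTC), a STAT element (TTCNNNGAA), the core of an interferon-stimulated response element (GAAA, any 2 bases, GAAA), the core of an antioxidant response element (TGACNNNGC), which NFE2L1 can bind, or an ETS element (CCGGAAG).
Psmb8 (chr17:34197945-34198194, + strand): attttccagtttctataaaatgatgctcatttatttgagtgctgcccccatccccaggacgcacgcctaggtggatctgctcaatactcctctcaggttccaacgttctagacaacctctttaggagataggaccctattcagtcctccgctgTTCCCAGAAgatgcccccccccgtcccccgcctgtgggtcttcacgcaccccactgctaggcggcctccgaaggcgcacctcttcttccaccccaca
Psmb9 (chr17:34187331-34187580, - strand): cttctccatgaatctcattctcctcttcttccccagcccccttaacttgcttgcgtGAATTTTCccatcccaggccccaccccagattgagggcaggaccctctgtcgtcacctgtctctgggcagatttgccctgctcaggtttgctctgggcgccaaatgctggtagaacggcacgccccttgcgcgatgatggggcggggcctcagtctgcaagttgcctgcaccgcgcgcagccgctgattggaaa
Psmb10 (chr8:105938393-105938642, - strand): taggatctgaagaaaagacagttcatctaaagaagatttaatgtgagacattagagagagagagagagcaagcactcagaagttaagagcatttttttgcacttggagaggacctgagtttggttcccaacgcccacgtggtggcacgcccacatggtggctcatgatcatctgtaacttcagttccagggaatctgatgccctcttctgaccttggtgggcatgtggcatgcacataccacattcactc
Psmb5 (chr14:54617996-54618245, - strand): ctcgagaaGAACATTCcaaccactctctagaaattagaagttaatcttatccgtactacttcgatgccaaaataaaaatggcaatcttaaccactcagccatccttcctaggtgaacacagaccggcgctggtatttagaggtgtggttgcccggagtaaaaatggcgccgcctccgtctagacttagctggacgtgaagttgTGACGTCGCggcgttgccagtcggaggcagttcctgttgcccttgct
Psmb6 (chr11:70525107-70525356, + strand): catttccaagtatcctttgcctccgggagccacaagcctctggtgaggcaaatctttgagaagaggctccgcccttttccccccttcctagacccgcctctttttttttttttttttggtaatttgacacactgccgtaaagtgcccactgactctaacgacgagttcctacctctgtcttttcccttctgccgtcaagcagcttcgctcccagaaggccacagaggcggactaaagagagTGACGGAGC
Psmc6 (chr14:45329574-45329823, + strand): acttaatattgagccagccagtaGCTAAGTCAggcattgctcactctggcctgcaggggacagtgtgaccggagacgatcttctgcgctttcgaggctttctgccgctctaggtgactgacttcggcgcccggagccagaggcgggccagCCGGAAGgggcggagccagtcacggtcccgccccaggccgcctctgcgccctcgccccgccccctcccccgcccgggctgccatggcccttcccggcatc
Psmd4 (chr3:95042615-95042864, - strand): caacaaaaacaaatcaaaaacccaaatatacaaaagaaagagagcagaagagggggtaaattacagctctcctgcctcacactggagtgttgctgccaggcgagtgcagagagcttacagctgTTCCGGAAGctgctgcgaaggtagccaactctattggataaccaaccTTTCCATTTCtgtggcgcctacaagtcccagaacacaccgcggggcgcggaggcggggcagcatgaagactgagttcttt
The capitals in Psmb8 are a STAT element that begins 97 bases before the start. Those in Psmb9 are a pair of heat shock units, beginning 194 bases before the start, and no letters of these motifs were found in the Psmb10 window. Psmb5 holds a pair of heat shock units and an antioxidant element 47 bases before the start, and Psmb6 an antioxidant element 9 bases before it. Psmc6 holds an antioxidant and an ETS element. In Psmd4 the heat shock pair TTCCGGAA overlaps an ETS element and is followed by an interferon-stimulated core.

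Across the 31 members with a RefSeq promoter entry, matches to heat shock pairs were no more frequent than over all genes. The pair TTCNNGAA was in 2 members (6.45%, Psmd4 and Psme3) against 7.46% of 17491 protein-coding genes with an entry. The pair GAANNTTC was in Psmb5 and Psmb9, again 6.45%, against 7.26%. The longer element with both pairs in a row, TTCNNGAA continued by NNTTC, was in 0 of 31 members and 0.452% of all genes. The ETS element was in 10 of 31 members (32.3%) against 10.2%. These 10 were Psma6, Psmc1, Psmc2, Psmc6, Psmd2, Psmd4, Psmd6, Psmd11, Psmd12 and Psme3. No immunoproteasome gene or searched beta ring gene was among them, and the beta ring genes Psmb1, Psmb2 and Psmb7 had no entry to search. Antioxidant cores were in 12.9% of members against 12% of all genes, CCAAT boxes (CCAAT) in 38.7% against 39.5% and GC boxes (GGGCGG) in 54.8% against 45.8%. Of the remaining motifs, the nuclear respiratory factor core (GCATGCG) was in 6.45% of members against 4.23%, the interferon-stimulated core in 6.45% against 3.48%, the STAT element in 3.23% against 7.65%, and the cyclic AMP element (TGACGTCA) in 0% against 2.2%. The median ratio of observed to expected CpG in these windows was 0.766 for members and 0.53 for all genes, and 0.554 for the 3 immunoproteasome genes. These shares describe the letters of the windows and carry no test.

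All 37 start regions were called in 8 of 8 libraries. Among the 31 members with a RefSeq start, 30 (96.8%) had that start inside a region called in every library, against 49.8% of all 17491 such genes. The exception was Psmb10. The start regions also sat high in their lists. The authors' score was expressed as its percentile within its own list, and a region's level is the mean percentile over the 8 libraries. Over the 30 members with a covered start the median level was 86.5, beside 79.8 for all 8713 genes with a covered start, and 12 of the 30 (40%) exceeded 90, beside 26.1%. Where several starts of a gene were covered, the highest level was taken.

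**Figure D1:**
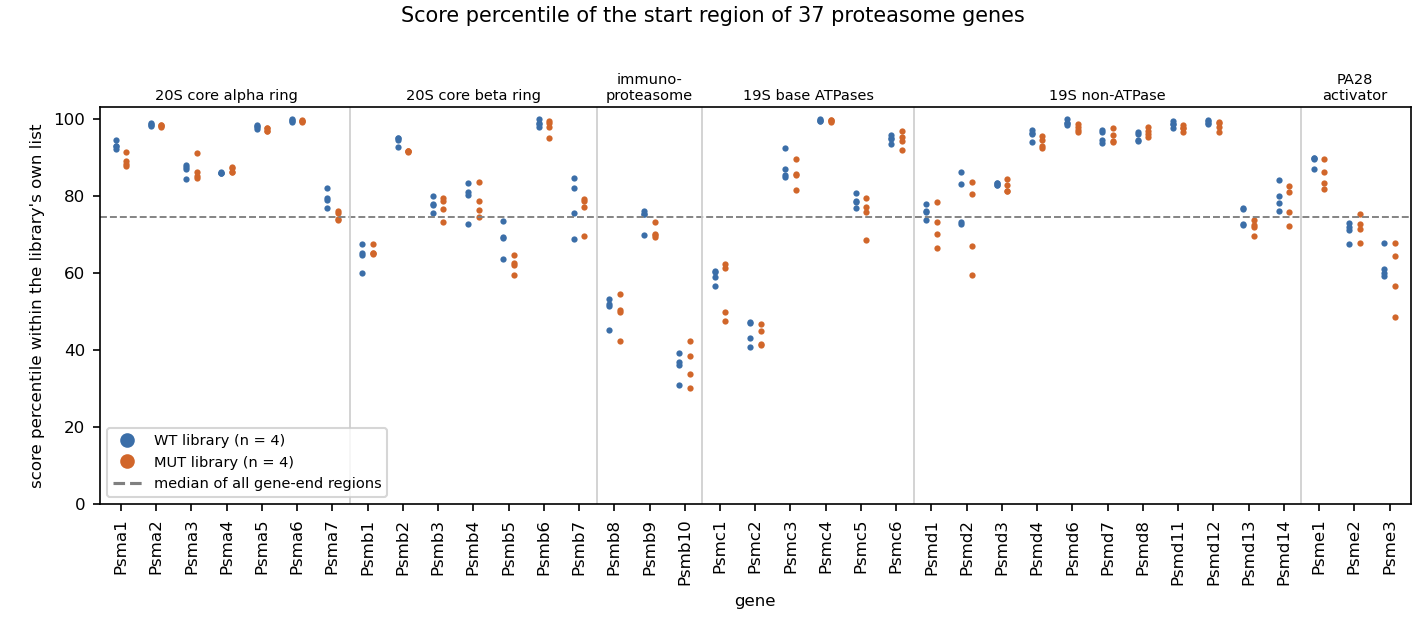
Score percentile of the start region of each of the 37 genes (vertical axis, within the library's own list), grouped by role, with 1 point per library (4 WT, 4 MUT) and a dashed line at the median level of all gene-end regions, 74.4. Psmb8, Psmb10 and the ATPase gene Psmc2, drawn at its linked region inside the gene, lie lowest. The points of the genotypes overlap for most genes.

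The levels differed by role within the complex. The alpha ring genes had a median level of 91.1, from 77.0 for Psma7 to 99.5 for Psma6. The ordinary beta ring genes had a median of 77.3, from 65.0 for Psmb1 to 98.3 for Psmb6. The 6 ATPase genes of the cap had a median of 81.7. Among them, Psmc4 was the highest of all members at 99.6. Psmc2 was among the lowest at 44.0, read at its linked region inside the gene. Another RefSeq start of Psmc2, at its gene end, lay in a region linked to a neighbour, with a level over 50. The ATPase median and range rest on the inner region. The 11 non-ATPase genes of the cap had a median of 94.8, from 73.3 for Psmd13 to 98.6 for Psmd12. This group includes Psmd4, a ubiquitin receptor, at 94.8, and Psmd14, the deubiquitinase of the cap, at 78.7. The 3 activator genes had a median of 71.3, and the 3 immunoproteasome genes one of 49.8. Over the other 34 members the median was 86.4, and over all 11225 gene-end regions called in 8 libraries it was 74.4. These are medians of a few genes each and were not tested. The gene-end regions include those at either end of a gene, whereas members were read nearest a start where RefSeq lists one.

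Width told another order. A region's width is the summed length of its called peaks in a library. The start regions of the 37 genes had a median mean width of 782 bp and quartiles of 636 and 848 bp, beside 744 bp and quartiles of 529 and 952 bp for all gene-end regions. The latter include regions at either end of a gene, so the sets are not matched. The widest was that of Psma7 at 1546 bp, which also covers an end of Ss18l1, and the next was Psme3 at 1152 bp with a level of only 60.6. Psmc4, highest by score, was narrow at 522 bp, and its width lay between 517 and 534 bp in all 8 libraries. Psmb10 was the narrowest at 351 bp and Psmb8 the next at 403 bp.

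**Figure D2:**
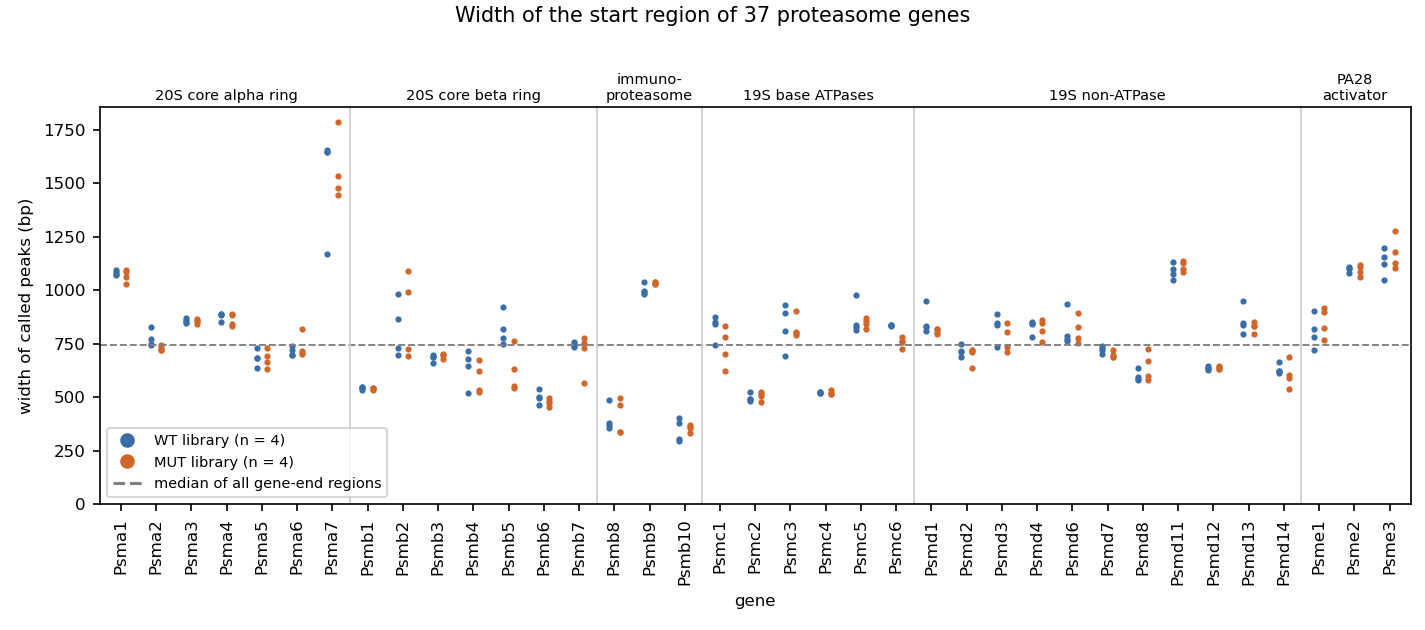
Width of the start region (vertical axis, bp of called peaks) of each of the 37 genes by role, with 1 point per library (4 WT, 4 MUT) and a dashed line at 744 bp, the median of all gene-end regions. Psma7 is the widest at a mean of 1546 bp, and Psmb8 and Psmb10 are the narrowest.

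Of the 37 start regions, 10 also lay within 1 kb of an end of another protein-coding gene, so their values may not belong to the member alone. The neighbours were Mrpl32 at Psma2, Hykk and AY074887 at Psma4, Ss18l1 at Psma7, Pcgf2 at Psmb3, Tap1 at both Psmb8 and Psmb9, Ftsj3 at Psmc5, Catsperg1 at Psmd8, Sirt3 at Psmd13 and Rnf31 at Psme2. Psma4, Psmc5 and Psmd13 had no linked peak because the neighbour's end was nearer. Psma4, an alpha ring gene (chromosome 9, 54950781 to 54958034), shares its start region with Hykk and AY074887, and the peaks were linked there. That region had percentiles of 85.9, 85.8, 86.2 and 85.8 in WT and 87.2, 86.1, 86.2 and 87.5 in MUT. The start region of Psmc5, an ATPase gene, was linked to Ftsj3 and had a level of 76.9. That of Psmd13, a cap gene, was linked to Sirt3 and had a level of 73.3. Each was called in every library, so no peak was missing at these genes. Psma6 and Psmc2 had links but no linked gene-end region, and their linked start region lies inside the annotated gene. The covered start of Psma6 lies 14603 bp inside, at a level of 99.5, with percentiles between 99.1 and 99.8 in all libraries. The inner start of Psmc2 lies 1472 bp inside, with percentiles of 46.9, 40.7, 47.3 and 43.1 in WT and 46.7, 44.9, 41.5 and 41.3 in MUT. Its other RefSeq start, at the gene end, also lay in a region called in all 8 libraries, which was linked to a neighbour. The start region of Psma3 likewise lay 5114 bp inside, but another region covered its annotated gene end.

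Read at the region nearest the start, the immunoproteasome genes stood low beside their constitutive counterparts, and the 3 differed among themselves. Psmb8 and Psmb9 lie next to the peptide transporter genes Tap1 and Tap2 in the MHC on chromosome 17, and Psmb10 lies on chromosome 8. At Psmb8 (34198195 to 34201454), the start region spanned 34198063 to 34198671 and reached percentiles of 51.4, 45.1, 52.0 and 53.3 in WT and 50.3, 42.4, 49.8 and 54.4 in MUT. Its rank was 35 of 37 members, with Psmc2 read at its linked inner region, and all 8 libraries lay near the middle of their lists. A second, weaker region of Psmb8 at 34197591 to 34197884, upstream of the start, had percentiles of 10.5 to 28.8 in WT and 9.21 to 25.2 in MUT. The start region was 354 to 485 bp wide in WT and 336 to 496 bp in MUT.

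Psmb9 (34182030 to 34187330) was the strongest of the 3. Its start region, 34186886 to 34187924, also covers an end of Tap1, so it cannot be assigned to either gene. The percentiles were 75.2, 75.4, 69.8 and 76.0 in WT and 69.8, 73.2, 70.0 and 69.4 in MUT. The WT libraries other than replicate 6 lay above all MUT libraries, and replicate 6 lay among them. Widths were 983, 1039, 991 and 995 bp in WT and 1029, 1028, 1039 and 1039 bp in MUT, so the region was about as wide in every mouse.

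Psmb10 (105935728 to 105938392) was the lowest of all 37 members when read at the region nearest its RefSeq start. That region, 105937858 to 105938324, lay 68 bp inside the gene and left the start itself uncovered. Its percentiles were 39.3, 30.9, 36.1 and 36.8 in WT and 30.0, 42.4, 33.7 and 38.5 in MUT. A stronger region, 105936895 to 105937546, lay deeper inside the gene, 846 bp from its end. There the percentiles were 84.1, 86.7, 84.9 and 89.6 in WT and 86.6, 86.5, 88.2 and 85.2 in MUT. The stronger region at Psmb10 was therefore inside the gene in every library, whereas the start regions of Psmb5 and Psmb6 spanned the start. The low rank of Psmb10 depends on the RefSeq start, which no called peak covers, and whether another start is used in these cells was not tested. The inner region had a level of 86.5.

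**Figure D3:**
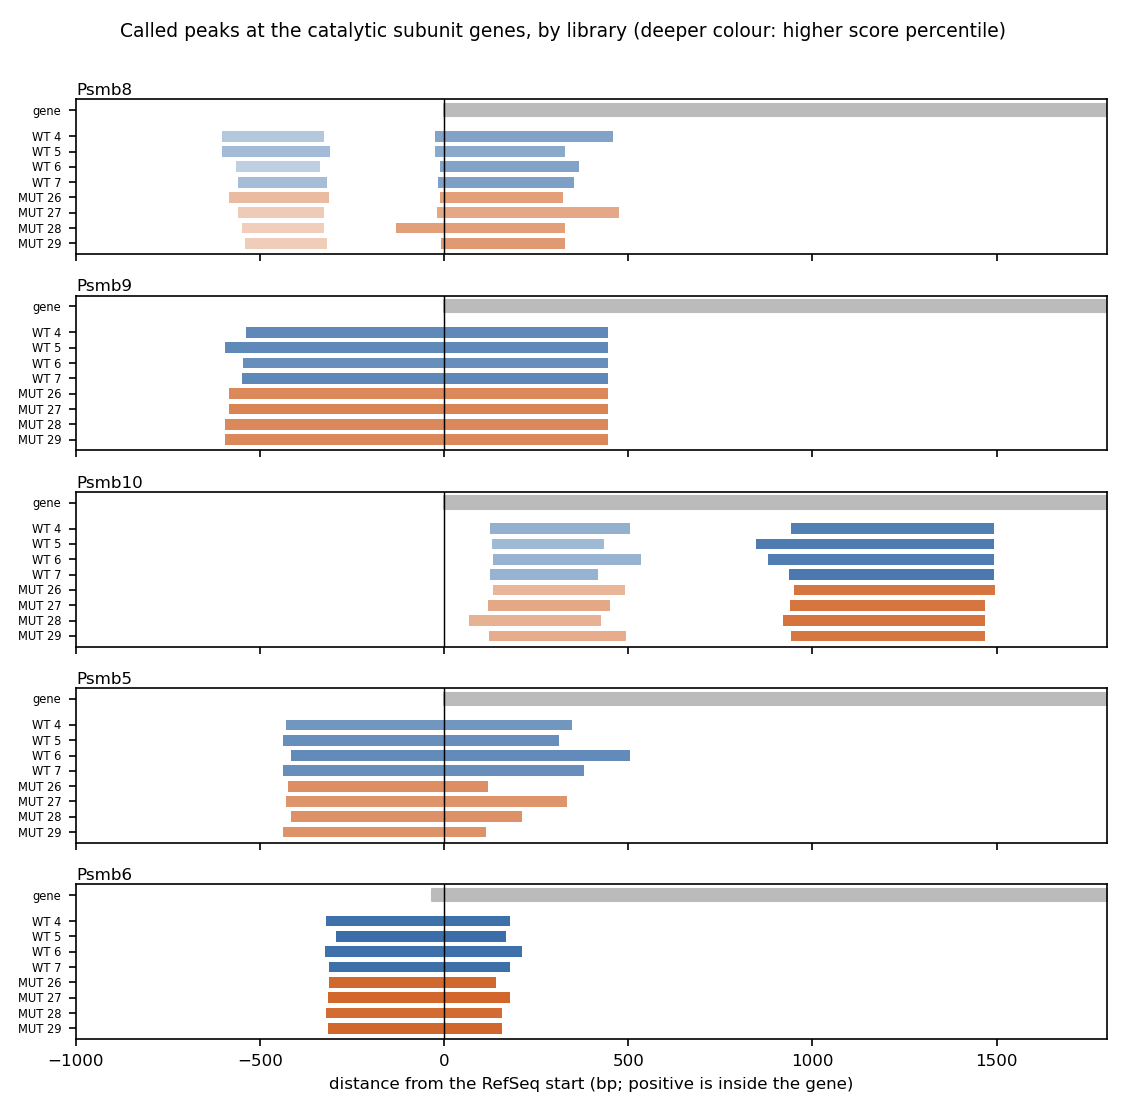
Called gene-end peaks around the RefSeq start of Psmb8, Psmb9, Psmb10, Psmb5 and Psmb6 (horizontal axis, distance in bp, positive inside the gene), with 1 row per library (blue WT, orange MUT), deeper colour for a higher score percentile and the gene in grey. The Psmb10 peaks lie to the right of the start in all 8 libraries, and the Psmb5 peaks extend less far into the gene in 3 of 4 MUT libraries.

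Among the counterparts, Psmb6, whose product has caspase-like activity and is the one replaced by Psmb9, was near the top of every list. Its percentiles were 98.7, 99.97, 97.8 and 98.8 in WT and 97.9, 99.3, 95.0 and 98.9 in MUT. Psmb7, whose product has trypsin-like activity and is replaced by that of Psmb10, had 84.5, 82.1, 68.7 and 75.4 in WT and 78.6, 79.3, 77.2 and 69.6 in MUT. Psmb5, whose product has chymotrypsin-like activity and is replaced by that of Psmb8, had 63.5, 69.4, 73.4 and 69.1 in WT and 64.5, 59.3, 62.4 and 62.1 in MUT. By level the order of the 6 genes was Psmb6 (98.3), Psmb7 (76.9), Psmb9 (72.3), Psmb5 (65.5), Psmb8 (49.8) and Psmb10 (36.0). Library values of Psmb7, Psmb9 and Psmb5 overlapped from 1 neighbour to the next. Those of Psmb6 lay above, and those of Psmb8 and then Psmb10 lay below. Psmb8 and Psmb10 overlapped in MUT replicate 27 alone, where both stood at 42.4 and Psmb10 was marginally the higher. In each replacement pair the constitutive gene had the higher level, with 98.3 against 72.3, 76.9 against 36.0 and 65.5 against 49.8. The order of Psmb7 and Psmb10 turns around if the inner region of Psmb10 (86.5) is taken in place of the one nearest its RefSeq start.

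The activator genes Psme1 and Psme2, which are interferon-inducible and encode the PA28 ring, did not share the low levels of Psmb8 and Psmb10. Psme1 (chromosome 14, 55578494 to 55581527) had percentiles of 89.8, 87.0, 89.5 and 89.9 in WT and 83.4, 89.5, 86.1 and 81.9 in MUT. Psme2 (chromosome 14, 55587440 to 55591101), whose start region also covers an end of Rnf31, had 71.9, 72.9, 67.4 and 71.0 in WT and 72.5, 67.8, 71.3 and 75.3 in MUT. Psme3, which encodes the nuclear activator, had 61.0, 59.2, 67.8 and 60.0 in WT and 56.6, 64.5, 48.4 and 67.6 in MUT. The groups overlapped for each of the 3.

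None of the immunoproteasome genes passed a test between the genotypes. In limma fits over all 11225 gene-end regions, the start region of Psmb8 differed by 0.04 ± 0.14 on the log2 width scale (MUT minus WT, SE, adjusted p = 0.980) and by -1.23 ± 2.83 percentile points (adjusted p = 0.852). Psmb9 differed by 0.06 ± 0.04 in log2 width (limma, adjusted p = 0.849) and by -3.49 ± 1.66 points (adjusted p = 0.282). For the region of Psmb10 nearest the start, the differences were 0.06 ± 0.12 in log2 width (limma, adjusted p = 0.962) and 0.38 ± 2.93 points (adjusted p = 0.965). The standard errors are large beside most of these values, so small differences were not detectable with 4 libraries per genotype.

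Over all members, no gene passed the test of accessible length, the summed length of linked peaks. Of the 34 members with a linked peak in at least 2 libraries, 0 passed an adjusted p of 0.05 in limma, where 0.673% of 14254 genes did. At an unadjusted p of 0.05, 4 of 34 passed, all lower in MUT (11.8%, beside 11.2% of all genes in either direction and 5.47% lower). The groups did not overlap for 3 of 34, Psma2, Psmb1 and Psmc6 (8.82%, all lower in MUT, beside 5.75% in either direction and 1.52% lower). The median difference was -0.04 over members and -0.02 over all genes on the log2(bp + 200) scale, which understates changes of genes with little length. The difference was below 0 in 28 of 34 members, beside 57.9% of all genes, and in 21 of 34, beside 43.5%, when libraries were not scaled to a common total. The members took 0.203% to 0.211% of all linked length in WT libraries and 0.189% to 0.204% in MUT libraries.

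Psmb5 and Psma2 had the lowest p-values for length. Psmb5 had 978, 1023, 1130 and 819 bp of linked peaks in WT and 545, 977, 630 and 554 bp in MUT. The MUT libraries other than replicate 27 lay below all WT libraries. The means were 988 ± 129 and 677 ± 204 bp (SD, n = 4 each), a log2 difference of -0.49 ± 0.13 (SE, limma adjusted p = 0.190). A weak region between genes, linked to Psmb5 at 54610009 to 54610281, accounts for part of that length. It was called in 3 of 4 WT libraries and in 1 of 4 MUT libraries, replicate 27. Psma2, an alpha ring gene, had 1302, 1283, 1281 and 1330 bp in WT and 1013, 1247, 1232 and 1056 bp in MUT. All MUT libraries lay below all WT libraries, with a log2 difference of -0.20 ± 0.05 (limma, adjusted p = 0.191). A small gene-end region of Psma2 at 14613667 to 14613889, near the low end of the lists, was called in 4 of 4 WT and 2 of 4 MUT libraries and accounts for part of that length.

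The length of Psmc6, an ATPase gene of the cap, was 836, 834, 840 and 839 bp in WT and 764, 757, 783 and 726 bp in MUT, with no overlap and a log2 difference of -0.15 ± 0.05 (limma, adjusted p = 0.316). Psmb3, a beta ring gene, had 1237, 1252, 1268 and 1225 bp in WT and 1050, 1262, 1263 and 1086 bp in MUT (-0.12 ± 0.05, limma adjusted p = 0.394). MUT replicates 26 and 29 were low and the other MUT libraries were among the WT values. The Psmb3 values parted at a region inside the gene (chromosome 11, 97710980 to 97711597), which was 551 to 578 bp wide in WT and 355, 561, 568 and 408 bp in MUT.

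**Figure D4:**
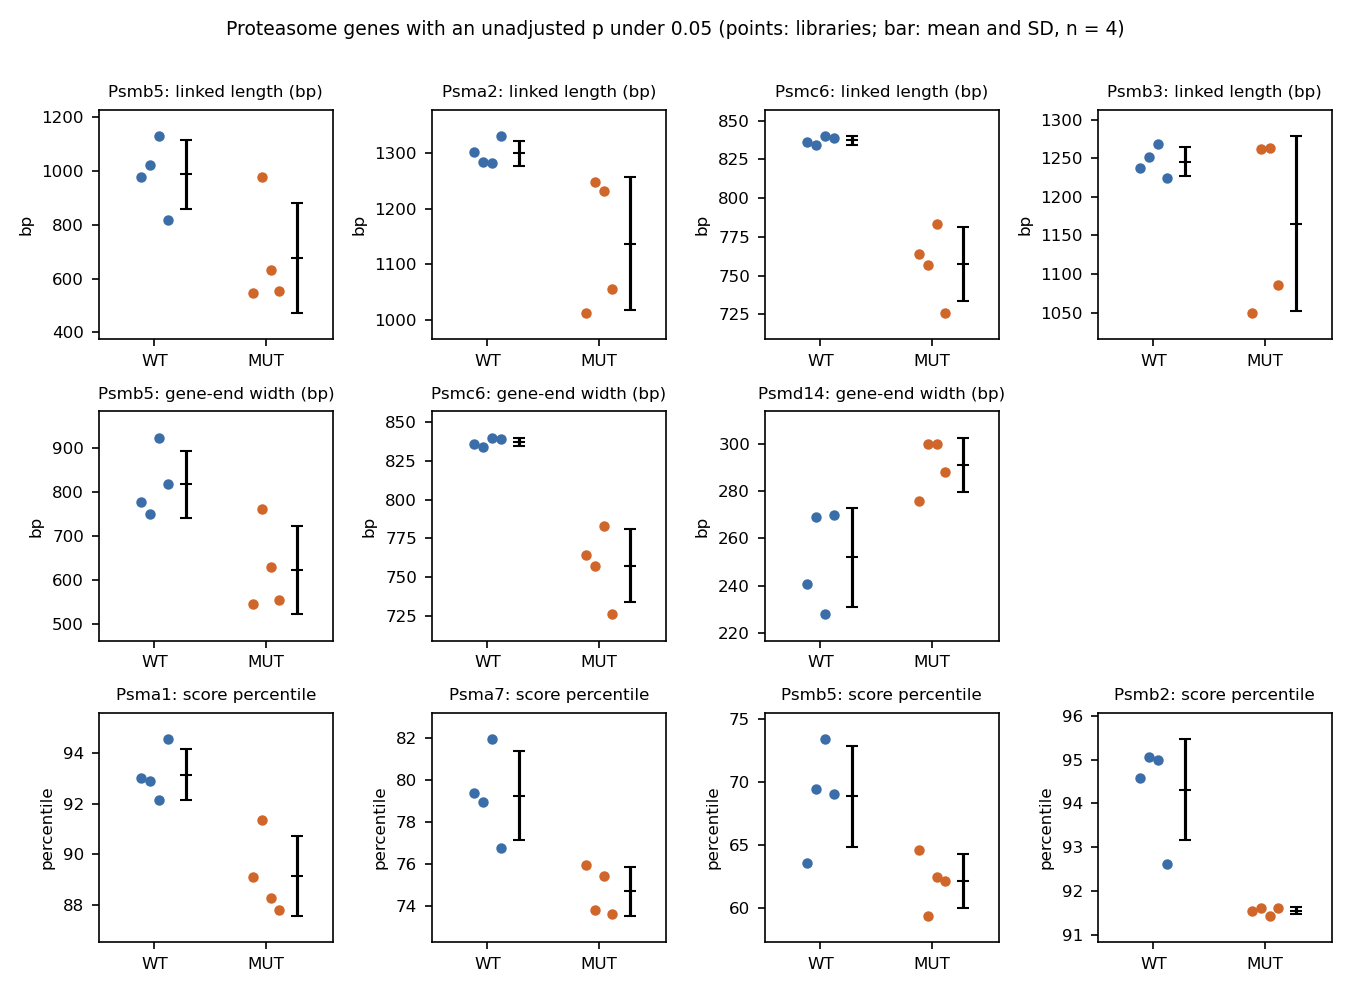
Values by library for the members with an unadjusted p under 0.05, as linked length (top row, bp), gene-end region width (middle row, bp) and score percentile (bottom row), with points for libraries and a bar for mean and SD (n = 4 per genotype). No vertical axis starts at 0. Of the panels, the genotypes separate in length for Psma2 and Psmc6, in width for Psmc6 and Psmd14, and in percentile for Psma1, Psma7 and Psmb2, while Psmb5 overlaps in all 3 measures.

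Width at the gene ends likewise gave no member past the threshold. Of the 36 gene-end regions linked to members and called in all libraries, 0 passed an adjusted p of 0.05 in limma, where 0.0178% of 11225 regions did. At an unadjusted p of 0.05 there were 3 (8.33%, beside 7.38%), of which 2 were narrower in MUT (beside 2.8% of all regions) and 1 was wider (beside 4.58%). The groups did not overlap in 4 (11.1%, beside 4.13%), with 3 narrower in MUT (beside 1.8%) and 1 wider (beside 2.33%). The difference was below 0 in 18 of 36, beside 42.8%. The median log2 difference was -0.0034 for members and 0.01 for all regions, after centring each library. The start region of Psmc6 was its only linked region, so its width repeats the values above, with a centred log2 difference of -0.13 ± 0.03 (limma, adjusted p = 0.406). Psmb5 was 778, 750, 924 and 819 bp wide in WT and 545, 763, 630 and 554 bp in MUT, where only replicate 27 fell among the WT values (-0.39 ± 0.10, limma adjusted p = 0.463). A second gene-end region of Psmd14 (chromosome 2, 61712659 to 61712970), 965 bp inside the gene, was wider in MUT, with 241, 269, 228 and 270 bp in WT and 276, 300, 300 and 288 bp in MUT. It did not overlap between the genotypes, and the log2 difference was 0.22 ± 0.07 (limma, adjusted p = 0.572). The others without overlap were the start region of Psma2, at 744 to 827 bp in WT and 719 to 742 bp in MUT, and the inner region of Psmb10, at 552 to 648 bp in WT and 528 to 549 bp in MUT.

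Score percentiles gave no call either. Of the same 36 regions 0 passed an adjusted p of 0.05 in limma, where 1.27% of all regions did, and 4 passed at an unadjusted p of 0.05, all lower in MUT (11.1%, beside 20.9% in either direction, 16.5% lower and 4.38% higher). Gene-end regions as a whole were lower in MUT, with a median difference of -1.20 points over all regions and -1.18 points over members. The difference was below 0 in 29 of 36 member regions, beside 67.2%. With the log2 score in place of the percentile, it was below 0 in 16 of 36, beside 41.0%. Log2 scores were centred on each library's median over these regions, and percentiles were not. That centring removes a general lean, so these counts cannot show whether the lean of the percentiles holds for the scores. The groups did not overlap for Psma1, Psma7 and Psmb2 (8.33%, all lower in MUT, beside 12.6% in either direction, 10% lower and 2.61% higher).

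Psma1, an alpha ring gene, had percentiles of 93.0, 92.9, 92.1 and 94.5 in WT and 89.1, 91.4, 88.3 and 87.8 in MUT, a difference of -4.005 ± 1.10 points (limma, adjusted p = 0.111). Psma7 had 79.4, 78.9, 81.9 and 76.8 in WT and 76.0, 73.8, 75.5 and 73.6 in MUT (-4.54 ± 1.29 points, limma adjusted p = 0.118). The region of Psma7 also covers an end of Ss18l1, so the value belongs to both genes. Psmb2, a beta ring gene, had 94.6, 95.1, 95.0 and 92.6 in WT and 91.6, 91.6, 91.4 and 91.6 in MUT (-2.76 ± 0.89 points, limma adjusted p = 0.143). Psmb5 differed by -6.74 ± 2.14 points (limma, adjusted p = 0.140), and its WT replicate 4 fell among the MUT values. Psmb5 was thus the one member with an unadjusted p under 0.05 in each of the 3 measures, which are read from the same peaks and are not independent. With the centred log2 score in place of the percentile, 0 of 36 member regions had an unadjusted p under 0.05 in limma, beside 16.8% of all regions, and Psma1, Psma7, Psmb2 and Psmb5 had unadjusted p-values of 0.157, 0.183, 0.448 and 0.119.

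**Figure D5:**
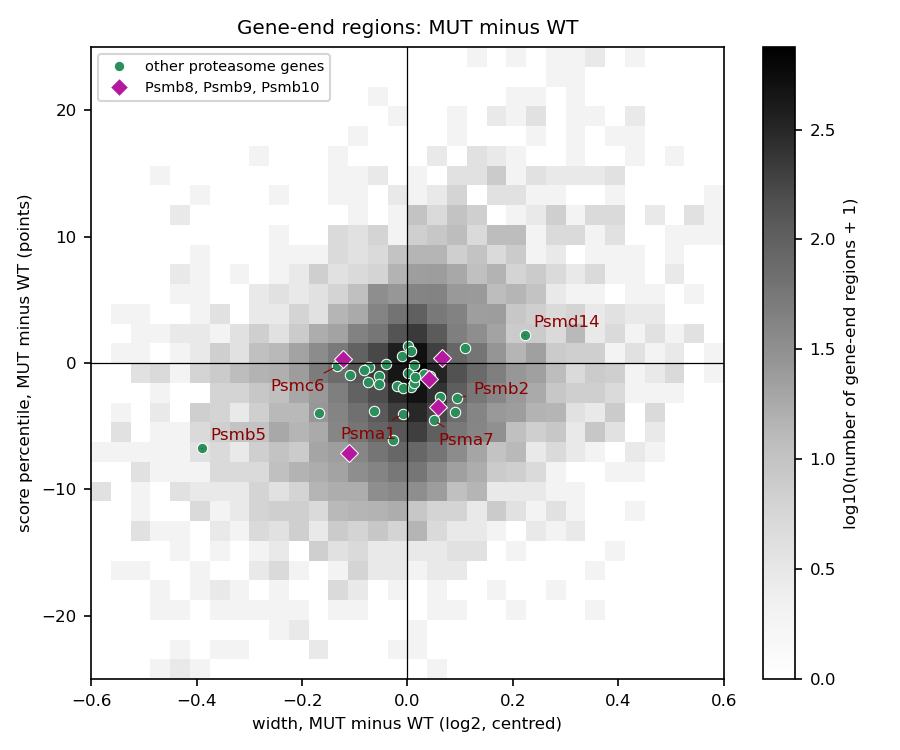
MUT minus WT for the 36 gene-end regions of members (points) over all 11225 gene-end regions (grey, log10 of their number per bin), with log2 width on the horizontal and percentile points on the vertical axis. Members lie within the grey cloud with Psmb5 at the lower left, named points have an unadjusted p under 0.05, and 65 gene-end regions fall outside the axes.

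No member region was gained or lost as a whole. Members had 72 linked regions, of which 69 had a peak in at least 2 libraries and 58 of those (84.1%, beside 68.9% of 50044 regions) had a peak in all 8. Regions called in 4 of 4 MUT and 0 of 4 WT libraries numbered 0 of 69, where the share over all regions was 0.583%, and the reverse numbered 0 of 69, where it was 0.178%. With 4 against 4 libraries the smallest two-sided p of Fisher's exact test is 0.0286, so no region could pass after adjustment. Away from the gene ends, the 35 linked regions fell into 13 in gene bodies and 22 between genes. Inside Psmc1, an ATPase gene, a region at 100121580 to 100122034 on chromosome 12 had percentiles of 38.7, 17.2, 31.8 and 28.4 in WT and 48.9, 67.5, 40.0 and 58.6 in MUT, without overlap (24.7 ± 6.62 points, limma over all regions of 8 libraries, adjusted p = 0.105). Inside Psmd14, a region at 61738888 to 61739527 had 53.0, 59.5, 50.2 and 52.6 in WT and 61.8, 66.0, 67.8 and 60.2 in MUT, again without overlap (10.1 ± 2.56 points, limma adjusted p = 0.0972). Other member regions went the other way. A region between genes linked to Psmb1, at 15467696 to 15468047, was lower in MUT by 17.2 points, with overlapping percentiles. Its widths did not overlap, at 229 to 352 bp in WT and 200 to 224 bp in MUT. A region inside Psma2, at 14618769 to 14619132, was lower by 15.7 points, with overlap. In that fit, 7069 of all 34461 regions had an unadjusted p under 0.05 for the percentile. These member regions were chosen after their values were seen.

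The lists of genes that build, regulate or feed the proteasome held no gene past the threshold. Of 17 listed assembly factors and further subunits, 16 matched the gene table and 14 were tested for length. None passed an adjusted p of 0.05 in limma, and 0 passed unadjusted. Pomp, the maturation factor of the core, had 1011 ± 18.8 bp in WT libraries beside 998 ± 64.4 bp in MUT (SD, n = 4 each), and the chaperone gene Psmg1 had 1332 ± 94.6 and 1309 ± 83.0 bp. Psmg3 had 1033 ± 265 and 1137 ± 161 bp, and Psmg4 had 1317 ± 124 and 1485 ± 318 bp. A peak was linked to Psmg2 in 1 WT and 1 MUT library. The tissue-restricted subunit genes had almost no called peaks, with Psmb11, the thymic subunit, at 0 bp in all 8 libraries and Psma8, the testis subunit, with 1 peak in 1 WT library. Of 6 genes of the NFE2L1 pathway, 0 passed adjusted or unadjusted, and Nfe2l1 itself had 1707 ± 10.4 bp in WT libraries and 1754 ± 94.7 bp in MUT libraries. Of 10 ubiquitin and shuttle genes, 0 passed in limma and 1 had an unadjusted p under 0.05. This was the shuttle receptor gene Rad23b with 1328 ± 283 bp in WT libraries and 1809 ± 283 bp in the MUT libraries (adjusted p = 0.366, limma).

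Among 13 tested genes of MHC class I antigen processing, which use the peptides of the immunoproteasome, 1 fell and 0 rose at the adjusted threshold. Over all 14254 genes, 0.673% passed in either direction. H2-K1, a classical class I heavy chain gene (chromosome 17, 33996012 to 34000619), had 1183, 1244, 1219 and 1073 bp in WT and 786, 902, 911 and 926 bp in MUT. All MUT libraries lay below all WT libraries, with a log2 difference of -0.38 ± 0.07 (limma, adjusted p = 0.0496). Calr in the same list also did not overlap but was higher in MUT, at 1072 to 1152 bp in WT and 1219 to 1288 bp in MUT (limma, adjusted p = 0.564). The H2-K1 call sits at the threshold. It was lost when any library except MUT replicate 29 was left out (adjusted p from 0.0287 to 0.137 over the 8 libraries) and under 6 of 11 other settings (0.0403 to 0.267). The transporter and loading genes did not pass, with Tap1 at 463 ± 104 bp in WT and 501 ± 156 bp in MUT, Tap2 at 1240 ± 130 and 1363 ± 162 bp, and Tapbp at 1340 ± 108 and 1400 ± 102 bp. The peaks that Tap1 shares with Psmb9 were linked to Psmb9 and are not in the length of Tap1.

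The sorted cell type was checked on its markers. All 8 NK marker genes listed (among them Ncr1, Eomes and Tbx21) carried a gene-end peak in every one of the 8 libraries. For length, 3 of the 8 had an unadjusted p under 0.05 in limma, in both directions, beside 11.2% of all genes. Only Klrb1c passed the adjusted threshold, as 0.673% of all genes did, and it fell in MUT by 0.27 on the log2 scale (limma, adjusted p = 0.0316). Of 8 B cell markers 6 could be tested, and 0 passed the adjusted threshold while 4 had an unadjusted p under 0.05. The summed length of the list was 2714 to 3215 bp in WT and 2840 to 4467 bp in MUT. Among 8 T cell markers Cd4, Cd8a and Cd8b1 were at 0 bp in all libraries, but 4 others had a gene-end peak in all 8. The summed lengths of that list were 4360 to 5196 bp in WT and 5223 to 6684 bp in MUT. Lyz2 and Mpo among 8 myeloid and dendritic markers (2708 to 3386 and 2477 to 4202 bp) and Gata1, Hbb-bt and Hba-a1 among 7 erythroid and platelet markers (2539 to 3265 and 2557 to 3205 bp) were also at 0 bp. The 6 basophil and mast cell markers summed to 5292 to 5904 bp in WT and 5335 to 6305 bp in MUT. Gene-end peaks in all 8 libraries were also present at 1 of 8 B cell and 2 of 8 myeloid and dendritic markers. The same held for 1 of 6 basophil and mast cell markers and 3 of 7 erythroid and platelet markers. The part of other cells in the values of the proteasome genes was not tested.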

How the data were processed

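ATAC-seq peak lists of 8 libraries (4 WT, 4 MUT) were used, with 1 list per mouse. The score per peak is the authors' deposited value, with no unit named. The submitters' processing notes name build mm10 (GRCm38), Bowtie2 2.3.4.1, Trimmomatic, DiffBind 3.0.12 and DESeq2 without roles. Peak calling and any shift of reads are not given in the sources used. The shortest peak was 200 bp.

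Genes came from a RefSeq table of GRCm38.p6 and starts from its promoter table, which held 31 of the 37 members. It holds no entry for Psmb1, Psmb2, Psmb7, Psmc3, Psmd3 and Psmd7, whose start region is the one nearest a gene end. Of the peaks linked within 50 kb, lengths were summed per gene, each library's total was scaled to the median, and log2(bp + 200) was tested with limma 3.58.1 (trend) over the 14254 genes that had linked peaks in 2 or more libraries. Log2 width (each library centred on its median) and score percentile were tested with limma over 11225 regions within 1 kb of a gene end and called in all 8 libraries. P-values were Benjamini-Hochberg adjusted over all features, with a threshold of 0.05. Printed lengths in bp are not scaled. Members were not tested as a list. The limma code was tested on simulated data. The most alike lists shared 0.596% of their peak intervals exactly, so each list was counted as its own replicate.

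The members, lists and tests were chosen with earlier results of these data known. Library values are printed for the catalytic and activator genes, for members with no linked gene-end region in all libraries, and for up to 4 members per direction and test with the smallest unadjusted p under 0.05, with the other members as ranges. Python 3.11.15 and R 4.3.3 were used. Alternatives varied the pseudocount, scaling, distances, filters, list size, merging, score scale and libraries. A fit over all regions of 8 libraries was added after the data had been seen. The values of 1 marker gene are not reported here.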

Additional observations from a re-analysis of the deposited data

Results flagged for a closer look

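A library stood apart from the other 3 of its genotype in 8 of 112 member values tested (Dixon's test at the 95% level). Chance flags about 1 in 20 groups. For 4 of the 8 values the library was MUT replicate 27, which also had the longest list (49627 peaks).

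In MUT replicate 27, no peak was linked to Psma7 (0 bp, beside 1157 to 1222 bp in the other MUT libraries), although its start region was 1786 bp wide there and its midpoint lay nearer to Ss18l1. Psmb2 had 1310 bp of linked peaks in that library (others 932 to 994 bp) and Psmd14 had 1856 bp (others 1449 to 1489 bp). The start region of Psmb9 reached percentile 73.2 there (others 69.4 to 70.0).

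In WT replicate 6, the start region of Psma7 was 1171 bp wide, beside 1648 to 1656 bp in the other WT libraries, and that of Psmb9 stood at percentile 69.8, beside 75.2 to 76.0. The weak upstream region of Psmb8 was at percentile 25.2 in MUT replicate 26, beside 9.21 to 11.8. Psme1 was at percentile 87.0 in WT replicate 5, beside 89.5 to 89.9.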

How the results depend on the processing

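Of the proteasome genes, 0 passed the adjusted threshold in limma under every alternative run, which were 19 for length, 16 for width and 15 for score percentile. The lowest adjusted p for length was 0.163 over 11 other settings (Psmb5, with peaks linked through the merged region) and 0.0512 over 8 fits that each left out a library (Psmb5, without MUT replicate 27). For width these were 0.202 (Psmc6, over all regions) and 0.242 (Psmb5, without MUT replicate 27). For percentile they were 0.0623 (Psma1, with 42695 peaks kept per list) and 0.0608 (Psma1, without MUT replicate 27). MUT replicate 27 thus gave the lowest values when left out in each of the 3 measures, and the cause was not tested. Regions called in 1 genotype alone stayed at 0 for members under each alternative run for them. No paired analysis was possible because the genotypes share no replicate numbers. Depth is unknown for these lists, which limits what an uncalled region means.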

Other observations

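The gene-side edge of the Psmb9 start region lay at the same base in all 8 libraries. An edge shared by all 8 libraries occurred in 27 of 11225 gene-end regions (0.241%), and the region of Psmb9 was the 1 start region of a proteasome gene among them. This was noticed after the values had been seen, and its cause was not tested.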
